A study of Mus musculus with 6 samples.

Results

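The 36 immediate early and stress response genes described here were chosen by name as a list, with earlier results of these data known. Each non-control array probe bearing one of the names was taken. The genes are 36 of the 34821 gene names on the array. They were represented by 41 of its 55681 non-control probes, with at least 1 probe each. The arrays measured RNA from aortic arches of female C57BL/6 Mir21+/+ mice, 1 mouse per array. All recipients were exposed to X-rays over the whole body, 2 fractions of 5 Gy within 4 h, and received bone marrow a day later. The 3 BM Mir21 KO mice received Mir21–/– marrow and the 3 BM Mir21 WT mice received Mir21+/+ marrow. Both groups began a high-fat diet 3 weeks after irradiation and stayed on it for 12 weeks. The vessel wall itself was therefore Mir21+/+ in both groups, and only marrow-derived cells differed in genotype. The sources used here give neither the age of the mice nor the hour of tissue collection. The question was which arch transcripts differ with the marrow genotype, with circadian control of apoptosis named in the series title.

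Immediate early genes are switched on within minutes of a growth signal, mechanical force or cell stress, before any new protein is needed. Most encode short-lived transcription factors, such as the FOS and JUN proteins that pair to form AP-1, the zinc-finger EGR factors and the orphan nuclear receptors of the NR4A family. Others encode brakes on the same signal, among them dual-specificity phosphatases that switch off MAP kinases and proteins that degrade short-lived mRNAs. In arteries, smooth muscle, endothelium and macrophages all use these genes when stretched, injured or exposed to cytokines.

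Levels are log2 signals relative to the 75th percentile of the same array, so 0 is that percentile, and differences are KO minus WT marrow. A gene was read by its brightest probe, and the other probes are given beside it. The 75th percentile ran from 238.9 to 386.2 signal units on the KO arrays and from 339.5 to 407.2 on the WT arrays. Between 66.38% and 74.25% of spots lay well above background on the KO arrays and between 71.15% and 74.41% on the WT arrays, with 0 saturated spots. All 6 arrays shared 1 slide and 1 scan, but WT arrays lay in slide row 1 and KO arrays in row 2, so row and marrow genotype cannot be told apart. The array carried 0 probes named for Mir21, and the knockout could not be checked on it. Of 8 smooth muscle markers, all 8 were well above background on every array, as were all 9 endothelial markers. Most fat-cell markers were low on KO replicates 2 and 3. Of the exceptions, the white adipocyte marker Lep was highest on those arrays, at -0.83 and -0.57. The brown adipocyte marker Dio2 lay within the WT range on KO replicate 2. The mean deviation of the 7 white adipocyte markers from the 6-array average was 1.17, -1.03 and -2.24 on KO arrays 1 to 3, against 0.82, 0.25 and 1.03 on WT arrays 1 to 3.

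Of the 36 genes, 33 were well above background on all 6 arrays, with 38 probes. Egr3 and Nr4a3 passed the background limit on 0 arrays and Dusp5 on only 1 WT array, so these 3 were not tested. With KO marrow, 25 of the 33 genes had the higher mean. The median difference over the 33 was 0.29, against 0.02 over all 38339 tested probes, of which 53.2% had the higher mean with KO marrow. None of the 33 passed the adjusted test (limma, Benjamini-Hochberg over all 38339 probes), which 1 probe in all, or 0.00261%, passed. At an unadjusted limma p under 0.05 there were 6 of 33 genes, against 8.71% of all probes. Of these, 5 were higher with KO marrow, against 4.44% of all probes, and 1 was lower, against 4.27%. At an unadjusted p under 0.01 there were 2 of 33, against 2.13%. By probe there were 9 of 38, with 7 higher and 2 lower. The 3 KO arrays lay wholly above the 3 WT arrays for 5 genes, against 7.58% of all probes, and wholly below for 2 genes, against 6.14%. The list was chosen with earlier results of these data known, so these shares describe it and do not test it. In bulk tissue, fewer cells of a type and less RNA per cell cannot be told apart.

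**Figure D1:**
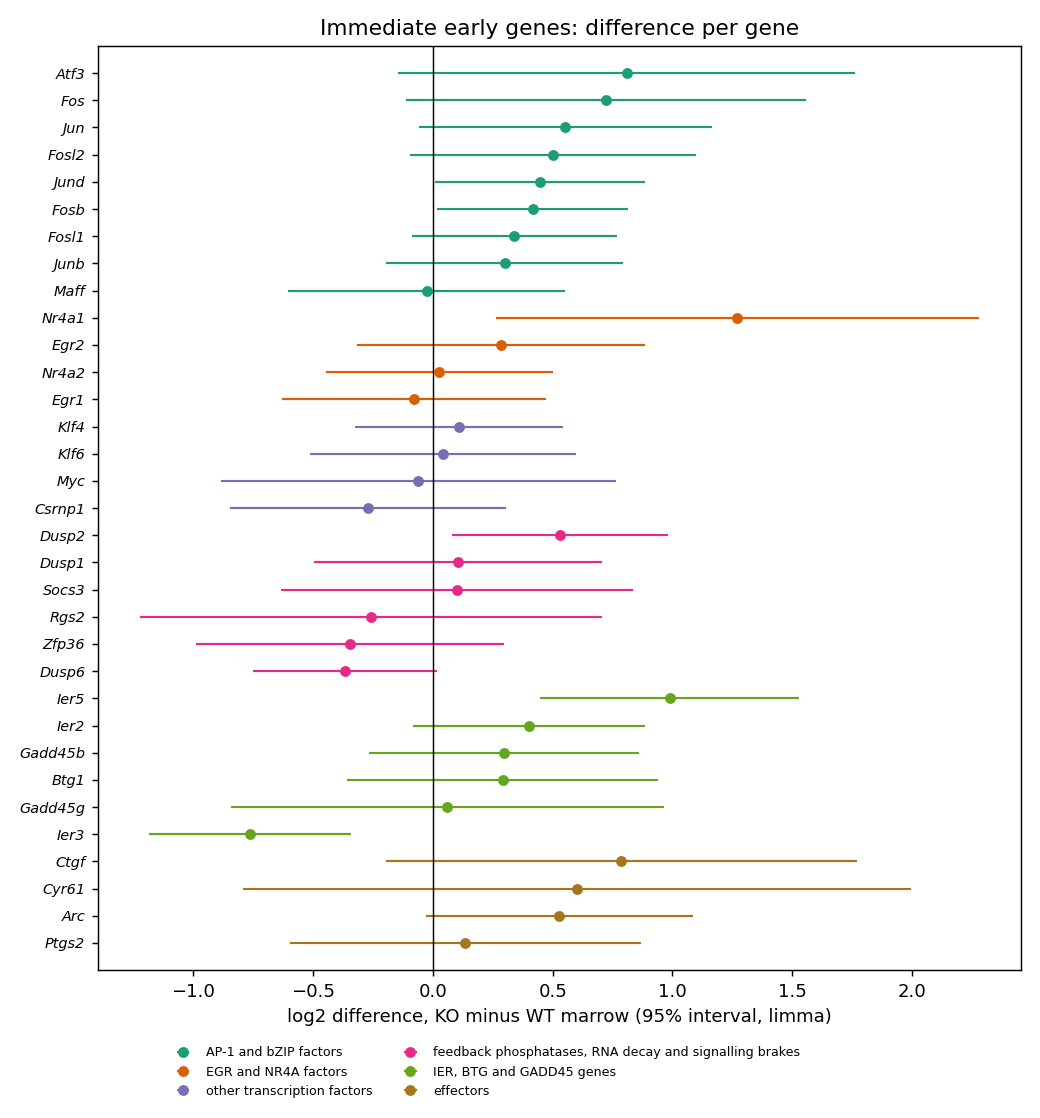
Log2 difference of each of the 33 measured genes, KO minus WT marrow (points), with 95% limma intervals (bars), coloured by role. Most points lie right of 0, Nr4a1 is farthest right at 1.27, Ier3 farthest left at -0.76, and the intervals of 6 genes leave out 0.

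Leaving out single arrays kept the median of the 33 genes positive, from 0.22 to 0.37, with 20 to 27 genes higher in the KO mean. With KO replicates 2 and 3 both left out, a setting chosen after seeing the data, 21 genes were higher and the median was 0.28. The number at an unadjusted p under 0.05 moved more, to 12 without KO replicate 1, 4 without KO replicate 2 and 2 without WT replicate 3. The share of all tested probes moved too, to 17.9%, 8.07% and 3.92% in these settings, against 8.71% with all arrays.

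The probes of Ier5, Ier3, Dusp2, Fosb and Jund, which were among the 6 genes at an unadjusted p under 0.05, are shown because they define which stretch of each transcript was read. They are printed 5′ to 3′ in lower case, with no part singled out, and Ier5 has a pair of probes on the same strand.
Ier5, probe nearer the 5′ end: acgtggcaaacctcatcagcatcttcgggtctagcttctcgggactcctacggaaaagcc
Ier5, probe nearer the 3′ end: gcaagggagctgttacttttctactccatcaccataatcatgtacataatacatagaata
Ier3: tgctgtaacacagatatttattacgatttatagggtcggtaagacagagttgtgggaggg
Dusp2: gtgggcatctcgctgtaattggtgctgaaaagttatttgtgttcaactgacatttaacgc
Fosb: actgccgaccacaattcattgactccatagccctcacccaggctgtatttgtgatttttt
Jund: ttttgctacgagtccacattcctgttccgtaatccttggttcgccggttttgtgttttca

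On mm9, the build named in the scanner files, the Ier5 probes lie at chr1:156945765-156945824 and chr1:156943530-156943589 on the minus strand. The Ier3 probe lies at chr17:35959528-35959587 and the Dusp2 probe at chr2:127163930-127163989, both on the plus strand. The Fosb probe lies at chr7:19888168-19888227 on the minus strand and the Jund probe at chr8:73224436-73224495 on the plus strand. Each carries the transcript accession of its gene in the files. Their position relative to exons and untranslated regions was not analysed here.

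Ier5, a growth-inducible gene whose product helps activate the heat shock factor HSF1, had the smallest p of the 33. Its brightest probe, nearer the 3′ end, read -1.37, -0.60 and -0.64 with KO marrow, against -1.88, -1.81 and -1.89 with WT marrow. All KO arrays lay above all WT arrays, and the WT arrays spanned less than 0.1. The 5′ probe, which reads another stretch of the transcript on the same arrays, gave -0.93, -0.58 and -0.82 with KO marrow, against -1.76, -1.93 and -2.18 with WT marrow. Again the groups did not overlap. The differences were 0.99 ± 0.23 (SE, 1.98-fold) at the brightest probe and 1.18 ± 0.18 (2.27-fold) at the 5′ probe. Their unadjusted limma p-values were 0.00318 and 0.000256 and their adjusted p-values 0.42 and 0.36, so neither passed. The brightest probe gave 0.85 to 1.24 with any single array removed, and read 0.49 without KO replicates 2 and 3.

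Ier3, a stress-inducible gene that modulates cell survival and ERK signalling, went the other way and was the only 1 of the 33 genes lower at an unadjusted p under 0.05. It read -0.30, 0.13 and -0.052 with KO marrow, against 0.82, 0.73 and 0.51 with WT marrow. All 3 KO arrays lay below all 3 WT arrays. The difference was -0.76 ± 0.18 (SE), or 1.70-fold lower with KO marrow, with an unadjusted p of 0.00331 and an adjusted p of 0.42 (limma). It was -0.87 to -0.65 with any single array removed, and its unadjusted p was under 0.05 in all 16 alternatives tried, as that of Ier5 was. The adjusted p over those alternatives ran from 0.078 to 0.9999 for Ier5 and from 0.15 to 0.9999 for Ier3.

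The remaining genes of this kind had smaller differences at their brightest probes. Ier2, another early response gene, read -1.10, -1.27 and -1.64 with KO marrow, against -1.82, -1.47 and -1.92 with WT marrow. The groups overlapped, with a difference of 0.40 ± 0.21. Btg1, an antiproliferative gene, differed by 0.29 ± 0.28 at its brightest probe, with overlapping groups. Its dimmer probe read -0.83, -0.93 and -0.61 with KO marrow, against -1.54, -1.03 and -1.77 with WT marrow. There the KO arrays lay above all WT arrays, at 0.65 ± 0.22 and an unadjusted limma p of 0.021. Gadd45b and Gadd45g, growth arrest and stress kinase regulators, differed by 0.30 ± 0.24 and 0.061 ± 0.39, with overlapping arrays for both.

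**Figure D2:**
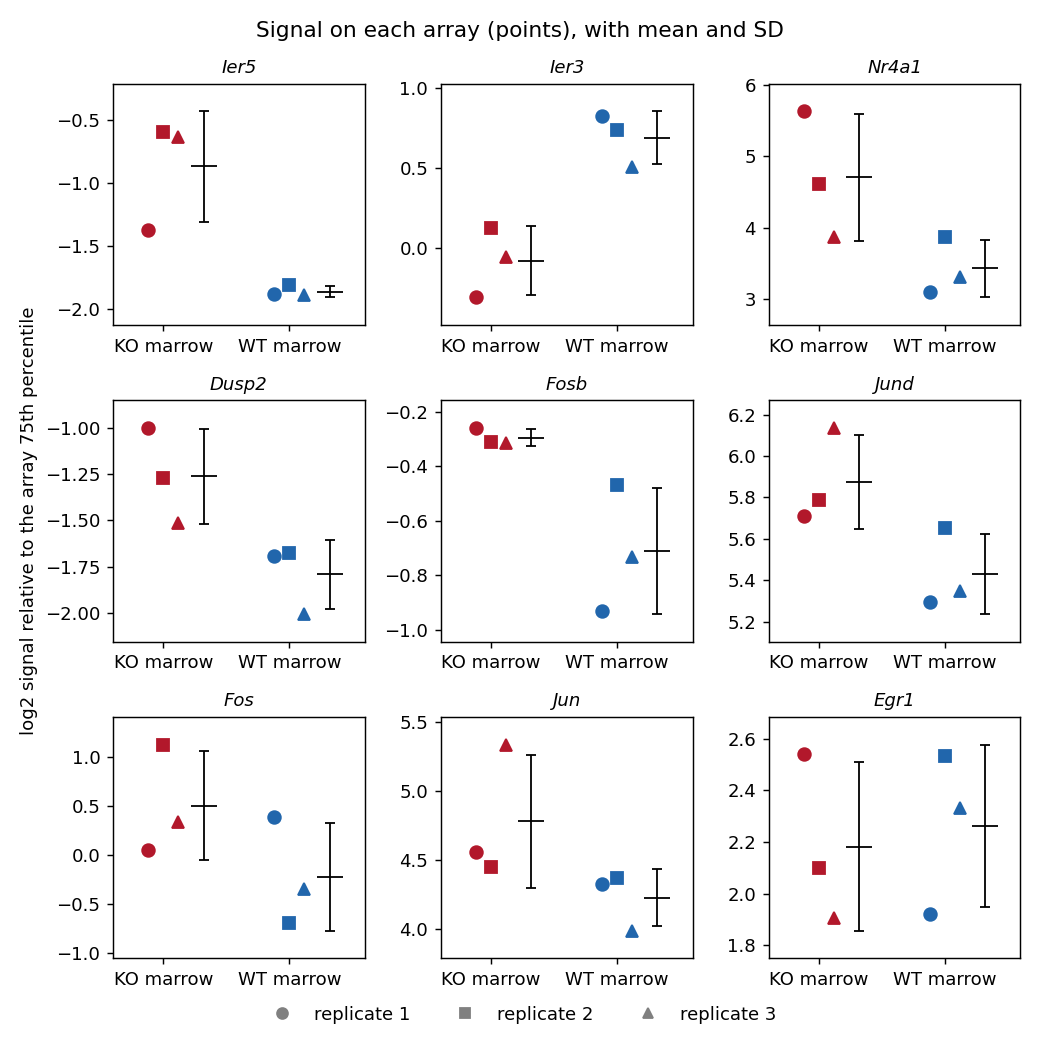
Log2 signal relative to the array's 75th percentile on each of the 3 KO marrow (left, red) and 3 WT marrow (right, blue) arrays for 9 genes, with mean and SD in black, and a vertical scale of its own in each panel. The groups are apart for Ier5, Ier3, Dusp2, Fosb, Jund and Jun, touch for Nr4a1, and overlap for Fos and Egr1.

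AP-1 subunits and related bZIP factors had higher means with KO marrow for 8 of the 9 genes, against 53.2% of all tested probes. Their median difference was 0.45. Fosb, Jund and Jun, 3 of the 9, had all KO arrays above all WT arrays, against 7.58% of all tested probes. Fosb, a FOS family subunit, read -0.26, -0.31 and -0.32 with KO marrow, against -0.93, -0.47 and -0.73 with WT marrow. The KO arrays lay within 0.1 of each other while the WT arrays were spread. Jund, the JUN subunit known to be expressed in resting cells, read 5.71, 5.79 and 6.13 with KO marrow, against 5.29, 5.65 and 5.35 with WT marrow. The differences were 0.42 ± 0.17 for Fosb and 0.45 ± 0.19 for Jund (SE), with unadjusted limma p-values of 0.043 and 0.047. Both had an adjusted p of 0.57. With any single array removed, the difference was 0.31 to 0.54 for Fosb and 0.32 to 0.56 for Jund.

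Jun itself, the founding member of its family, read 4.55, 4.45 and 5.33 with KO marrow, against 4.32, 4.37 and 3.99 with WT marrow. The groups were apart, but KO replicate 3 stood well above the rest, and without it the difference of 0.55 ± 0.26 was 0.28. Fos, its classic partner, read 0.053, 1.12 and 0.33 with KO marrow, against 0.38, -0.70 and -0.35 with WT marrow. KO replicate 2 was highest and WT replicate 1 lay among the KO arrays, so the groups overlapped. The Fos difference was 0.72 ± 0.36, with an unadjusted p of 0.080 (limma), and 0.42 without KO replicate 2.

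The other AP-1 genes overlapped between groups. Atf3, a stress-induced repressor, read 0.36, 1.74 and 1.21 with KO marrow, against 0.93, 0.19 and -0.23 with WT marrow, a difference of 0.81 ± 0.41. In both Atf3 and Fos, KO replicate 2 was highest and WT replicate 1 the highest of its group. The lowest array was WT replicate 3 for Atf3 and WT replicate 2 for Fos. The Atf3 difference was 0.49 without KO replicate 2 and 0.068 without KO replicates 2 and 3. Fosl2 differed by 0.50 ± 0.26 at its brightest probe and 0.66 ± 0.34 at its dimmer probe, and the brightest probe gave 0.069 without KO replicates 2 and 3. Fosl1 differed by 0.34 ± 0.18, and by 0.22 without KO replicate 2 and 0.055 without KO replicates 2 and 3. Junb differed by 0.30 ± 0.21, and by 0.14 without KO replicate 1. Maff, a small MAF protein, was the exception at -0.026 ± 0.25. Fosl1 and Junb were the dimmest tested genes of the list, with levels of -3.08 and -2.81 over all arrays. The dimmer Fosl2 probe lay at -3.30.

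Nr4a1, an orphan nuclear receptor that restrains inflammation in macrophages and also responds to many acute stimuli, had the largest difference of the 33. It read 5.62, 4.61 and 3.87 with KO marrow, against 3.11, 3.88 and 3.31 with WT marrow. KO replicates 1 and 2 lay above all WT arrays, while KO replicate 3 and WT replicate 2 were level at 3.87 and 3.88, so the groups just overlapped. The difference was 1.27 ± 0.43 (SE), or 2.41-fold, with an unadjusted p of 0.020 and an adjusted p of 0.51 (limma). It was 0.81 without KO replicate 1 and 1.69 without KO replicate 3.

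Its relative Nr4a2 and the EGR factors had smaller differences. Nr4a2 read 1.08, 0.86 and 0.40 with KO marrow, against 0.81, 0.75 and 0.70 with WT marrow. The WT arrays lay inside the range of the KO arrays, and the difference was 0.028 ± 0.20, with -0.0068 ± 0.18 at the dimmer probe. Egr1, a zinc-finger factor induced by shear stress and injury in vessels, read 2.54, 2.10 and 1.91 with KO marrow, against 1.92, 2.53 and 2.33 with WT marrow. Both groups covered the same range. The Egr1 difference was -0.079 ± 0.24, with a 95% interval from -0.63 to 0.47, so differences within that range were not excluded by these arrays. Egr2 differed by 0.28 ± 0.26, with KO replicate 2 highest, and by 0.040 without that array and 0.55 without KO replicate 3. The differences of Nr4a1, Nr4a2 and Egr1 from each other were not tested.

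The start regions of these genes were searched for letters that their known activators bind. RefSeq windows on GRCm38.p6, from 250 bases before to 50 bases after a gene's start, were matched for 29 of the 36 genes. Fosl1, Egr1, Egr3, Ier2, Myc, Ctgf and Arc had no window. Some genes had several windows, and a gene was counted if any of its windows held the letters. The core of the cyclic AMP response element, TGACG on either strand, was in the windows of 18 of these 29 genes (62.1%), against 23% of 27025 genes. The full element, TGACGTCA, which contains that core, was in 2 of 29 (6.90%), against 2.03%. The CArG box of serum response factor was in 3 of 29 (10.3%), against 1.81%, and the AP-1 site TGANTCA in 1 of 29 (3.45%), against 8.97%. Such matches describe the letters only, and these shares were not adjusted for base composition or for the number of windows per gene. Of the 6 genes at an unadjusted p under 0.05, Nr4a1, Fosb and Dusp2 held the core, with 4 copies in the Nr4a1 window. Ier5, Ier3 and Jund, the others of the 6, held 0 copies. The windows of Nr4a2 and Nr4a3 held 4 copies each, as that of Nr4a1 did. The windows of Nr4a1, Fosb and Dusp2 are shown 5′ to 3′ along the gene, with the core in capitals. It is written CGTCA where it lies on the other strand.
Nr4a1: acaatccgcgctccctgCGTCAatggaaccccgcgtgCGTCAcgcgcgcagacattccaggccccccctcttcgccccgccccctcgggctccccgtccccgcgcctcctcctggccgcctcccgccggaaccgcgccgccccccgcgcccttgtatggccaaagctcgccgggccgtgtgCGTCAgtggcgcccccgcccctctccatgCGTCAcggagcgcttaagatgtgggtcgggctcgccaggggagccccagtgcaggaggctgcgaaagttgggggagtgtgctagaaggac
Fosb: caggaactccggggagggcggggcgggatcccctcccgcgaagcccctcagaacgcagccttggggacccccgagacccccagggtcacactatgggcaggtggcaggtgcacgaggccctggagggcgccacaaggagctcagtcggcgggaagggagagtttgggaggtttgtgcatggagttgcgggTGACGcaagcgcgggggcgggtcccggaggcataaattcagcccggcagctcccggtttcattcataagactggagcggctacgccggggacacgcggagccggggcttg
Dusp2: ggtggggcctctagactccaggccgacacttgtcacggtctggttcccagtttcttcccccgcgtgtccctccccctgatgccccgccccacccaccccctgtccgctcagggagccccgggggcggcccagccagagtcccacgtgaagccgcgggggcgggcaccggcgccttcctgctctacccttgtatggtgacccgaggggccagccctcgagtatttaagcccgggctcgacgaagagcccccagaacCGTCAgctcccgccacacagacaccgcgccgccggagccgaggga

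These windows lie at chr15:101266596-101266895 on the plus strand for Nr4a1, chr7:19309996-19310295 on the minus strand for Fosb and chr2:127335909-127336208 on the plus strand for Dusp2, all on GRCm38.p6. The core was also in the windows of Egr2 and Nr4a2, whose differences were 0.28 and 0.028.

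The brakes on the response were divided. Dusp2, a nuclear MAP kinase phosphatase found mainly in leukocytes, read -1.002, -1.27 and -1.51 with KO marrow, against -1.69, -1.68 and -2.01 with WT marrow. All KO arrays lay above all WT arrays, at 0.53 ± 0.19 (SE), an unadjusted p of 0.027 and an adjusted p of 0.54 (limma). Dusp6, the cytoplasmic phosphatase selective for ERK, was arranged the opposite way, at 2.28, 2.34 and 2.17 with KO marrow, against 2.44, 2.62 and 2.83 with WT marrow. All KO arrays lay below all WT arrays, at -0.37 ± 0.17, and the unadjusted p of 0.060 missed the threshold. Dusp1, the phosphatase induced by stress and glucocorticoids, differed by 0.10 ± 0.26 and its groups overlapped.

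Zfp36, which encodes the mRNA-destabilising protein tristetraprolin, differed by -0.34 ± 0.28, and by -0.55 without KO replicate 2, -0.14 without KO replicate 3 and -0.14 without WT replicate 1. With another background correction, normexp, the Zfp36 difference was -0.078. Socs3, a cytokine signalling inhibitor, differed by 0.10 ± 0.31. Rgs2, a brake on G-protein signalling and vascular tone, read 4.78, 3.56 and 3.00 with KO marrow, against 4.13, 3.91 and 4.08 with WT marrow. The KO arrays were spread on both sides of the tightly grouped WT arrays, and the difference was -0.26 ± 0.41. Its dimmer probe gave -0.52 ± 0.22, with an unadjusted p of 0.047 (limma) and overlapping groups.

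Secreted and effector genes had higher KO means for 4 of 4, against 53.2% of all tested probes. None had an unadjusted p under 0.05, against 8.71% of all tested probes. Ctgf, a matricellular growth factor induced by TGF-beta and by YAP, read 6.91, 8.26 and 8.26 with KO marrow, against 7.63, 6.77 and 6.68 with WT marrow. Cyr61, its close relative, read 1.98, 4.11 and 4.03 with KO marrow, against 3.52, 2.27 and 2.53 with WT marrow. Both genes were high on KO replicates 2 and 3 and on WT replicate 1 and low on the other 3 arrays, so the pattern cut across the groups. The differences were 0.79 ± 0.42 for Ctgf and 0.60 ± 0.60 for Cyr61, and without KO replicates 2 and 3 they were -0.12 and -0.79.

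Arc, a cytoskeletal gene best known from neurons, read -0.33, 0.15 and -0.48 with KO marrow, against -0.95, -0.38 and -0.92 with WT marrow. The groups overlapped, at 0.53 ± 0.24 and an unadjusted limma p of 0.060, and the difference was 0.34 without KO replicate 2. Ptgs2, the inducible cyclooxygenase, differed by 0.14 ± 0.31. The other transcription factors of the list lay close to 0 and their groups overlapped, with Klf4 at 0.11 ± 0.19, Klf6 at 0.042 ± 0.24, Myc at -0.060 ± 0.35 and Csrnp1 at -0.27 ± 0.25. The Csrnp1 difference was -0.053 without WT replicate 1, -0.12 without KO replicate 1 and -0.44 without WT replicate 3, and the Klf4 difference 0.023 without KO replicate 1 and 0.27 without KO replicate 3.

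**Figure D3:**
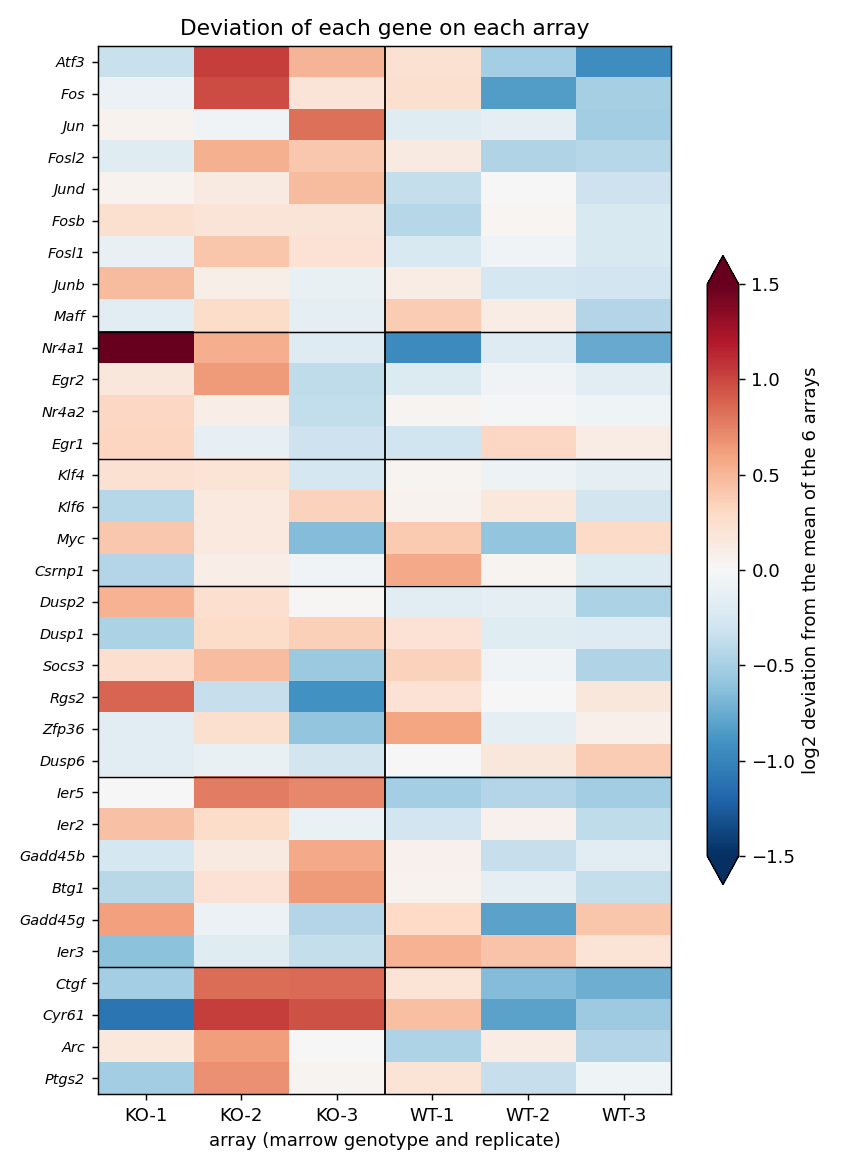
Log2 deviation of each of the 33 genes from its mean over the 6 arrays, with KO marrow arrays on the left and WT marrow arrays on the right, and horizontal lines between roles. Fos, Atf3, Ctgf and Cyr61 are high on KO replicate 2 and low on WT replicates 2 and 3, while Ier5 separates the groups and Ier3 does so in the opposite direction.

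Array by array, the mean deviation of the 33 genes was 0.021, 0.32 and 0.049 on KO arrays 1 to 3, against 0.038, -0.18 and -0.25 on WT arrays 1 to 3. KO replicate 2 was the highest, and WT replicate 1 lay between KO replicates 1 and 3. Within the KO group, replicate 2 was the highest array for 15 of 33 genes and the lowest for 1, against 23.2% and 35.1% of all tested probes. Within the WT group, replicate 1 was the highest for 19 of 33 genes, against 30.4% of all tested probes, and replicate 3 for 2.

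Markers of other cells moved on some of the same arrays. The 8 macrophage markers averaged 0.047, 0.89 and -0.52 on the KO arrays, against 0.14, -0.47 and -0.087 on the WT arrays. Of these, 5 of 8 were higher in the KO mean, with a median difference of 0.11. The macrophage list, the fibroblast and matrix list and the 33 genes were each highest on KO replicate 2. Among the macrophage markers, Itgam was lowest of the KO arrays on that replicate, and Csf1r was highest on KO replicate 1. The 8 smooth muscle markers averaged -0.23, 0.27 and 0.49 on the KO arrays, against -0.25, 0.031 and -0.31 on the WT arrays. Of these, 7 of 8 were higher in the KO mean, with a median difference of 0.29, against 0.29 over the 33 genes. The 7 fibroblast and matrix markers averaged 0.033, 0.37 and 0.075 on the KO arrays, against 0.0014, -0.48 and 0.0061 on the WT arrays, with 6 of 7 higher in the KO mean and a median difference of 0.30. The 7 cardiac muscle markers averaged 1.47, -1.004 and 1.08 on the KO arrays, against -0.71, -0.093 and -0.75 on the WT arrays, with 7 of 7 higher in the KO mean and a median difference of 0.84. The 8 T cell and thymocyte markers averaged 0.28, -0.79 and -0.083 on the KO arrays, against 0.13, 0.25 and 0.22 on the WT arrays. Of these, Rag1, Rag2 and Ptcra were well above background on only 1 KO array each, against 3 WT arrays. They were tested only through the WT group, where they were higher, so they weigh on these means. Among the rest, Cd8a, Cd3e and Cd4 differed by 0.36, 0.12 and 0.0032, and Cd3d and Dntt by -0.33 and -0.72. The 6 brown adipocyte markers averaged 1.26, -1.36 and -2.65 on the KO arrays, against 1.16, 0.25 and 1.34 on the WT arrays. The 9 endothelial markers averaged 0.080, -0.12 and -0.49 on the KO arrays, against 0.25, 0.17 and 0.11 on the WT arrays. The KO mean was higher for 3 of 8 T cell and thymocyte, 1 of 6 brown adipocyte and 1 of 9 endothelial markers. Their median differences were -0.40, -1.92 and -0.31. The 5 tested neutrophil markers averaged 0.44, 0.057 and -0.48 on the KO arrays, against -0.056, 0.65 and -0.61 on the WT arrays. Of these, 3 of 5 were higher in the KO mean, with a median difference of 0.029. The part of these cells in the differences was not tested.

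**Figure D4:**
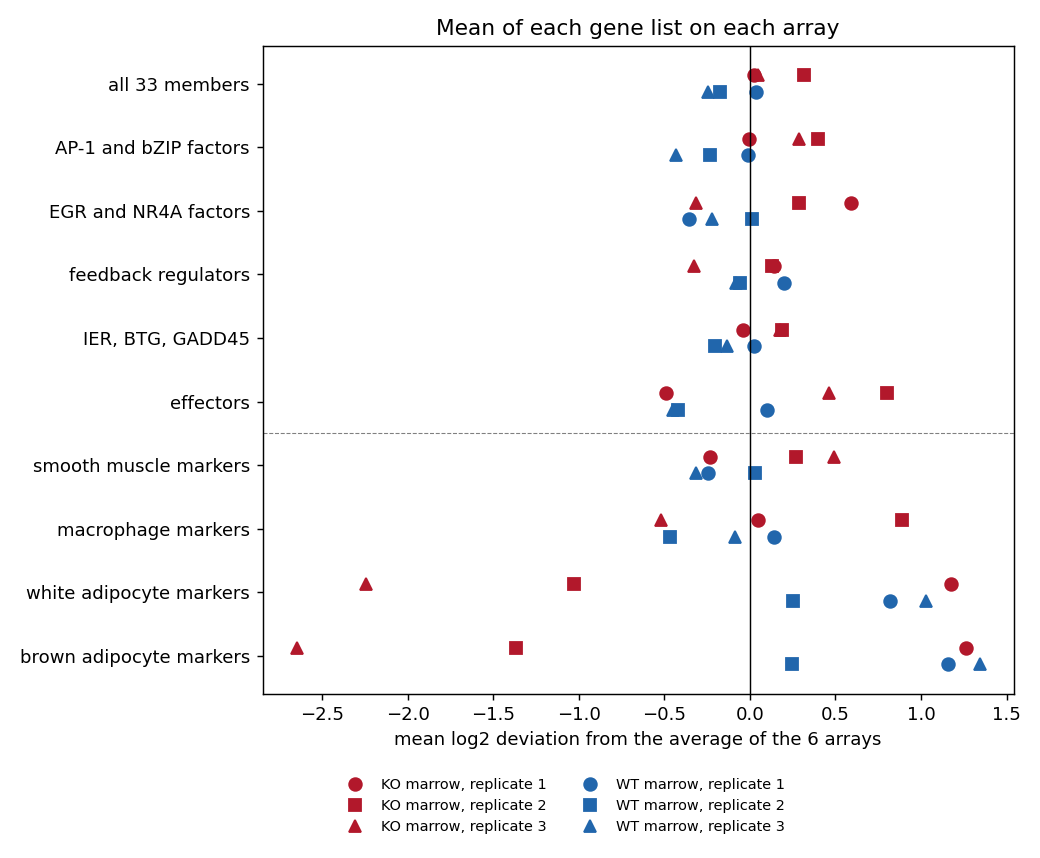
Mean log2 deviation of each gene list from the average of the 6 arrays, with the KO marrow arrays (red) above the WT marrow arrays (blue) in each row and symbols for replicates 1 to 3. The immediate early genes are highest on KO replicate 2, at 0.32, and on KO replicate 3 the white and brown adipocyte markers lie lowest, at -2.24 and -2.65.

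Immediate early genes outside the list were about evenly divided. Of 37 listed, 32 were tested, and 15 had the higher and 17 the lower mean with KO marrow, with a median difference of -0.04. At an unadjusted limma p under 0.05, 2 were higher, against 4.44% of all tested probes, and 3 lower, against 4.27%. Of the 32, 0 passed the adjusted test. Zfp36l2, an mRNA-destabilising relative of Zfp36, read 4.27, 4.19 and 4.17 with KO marrow, against 5.22, 5.27 and 5.17 with WT marrow. The arrays of each group lay close together and the groups were a full log2 unit apart, at -1.01 ± 0.14 (SE), an unadjusted p of 0.000143 and an adjusted p of 0.35 (limma). Its relative Zfp36l1 read 3.02, 3.63 and 3.96 with KO marrow, against 2.63, 2.94 and 2.95 with WT marrow. The groups were again apart but in the opposite direction, at 0.70 ± 0.26.

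Plk2, a stress-responsive kinase, read -2.11, -2.32 and -2.35 with KO marrow, against -1.62, -1.55 and -1.51 with WT marrow, a difference of -0.70 ± 0.15. Nfkbiz, a nuclear regulator of NF-κB target genes, read -2.15, -1.94 and -2.37 with KO marrow, against -2.81, -2.84 and -2.71 with WT marrow, a difference of 0.64 ± 0.17. In both genes the groups did not overlap, and neither passed the adjusted test.

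Of 34 kinases, transcription factors and inhibitors that act upstream of these genes, all 34 were tested. The higher mean was with KO marrow for 24, against 53.2% of all tested probes, and the median was 0.13. Only Spred2, an inhibitor of the RAS to ERK pathway, had an unadjusted p under 0.05, against 8.71% of all tested probes. It read -1.77, -1.52 and -1.65 with KO marrow, against -0.80, -1.03 and -1.08 with WT marrow, with the groups apart at -0.68 ± 0.16 (adjusted p = 0.42, limma). Srf, the serum response factor that drives many immediate early genes, differed by 0.16 ± 0.26. The 12 further AP-1 and ATF partners tested had a median of 0.022, with 0 at an unadjusted p under 0.05, against the same 8.71%.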

How the data were processed

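RNA of 6 aortic arches was hybridised to 6 Agilent arrays of 1 colour. Per the file headers, the authors read them with Agilent Feature Extraction 10.7.3.1, and the deposited processed signals are linear intensities after background subtraction and detrending, with surrogates for low values and no normalization between arrays. The authors' series table held the same intensities to within 0.497%. Each signal was divided by the 75th percentile of its array's non-control spots and put on a log2 scale. Outlier spots were left out and spots of a probe averaged. Flags for outlier spots and for signal above background are the deposited ones of the scanner software. A probe was tested if every array of either group read it well above background, which kept 38339 of 55681. Another 12 had outlier spots. KO minus WT was fitted with lmFit and eBayes (limma 3.58.1, R 4.3.3) in a two-sided test, adjusted by Benjamini-Hochberg at a threshold of 0.05. The fit was checked on simulated arrays. Genes given with every array were those at an unadjusted p under 0.05 or without overlap, plus Fos, Jun, Egr1 and Nr4a1, and others were added after their values were seen. From related lists, the up to 4 genes of smallest p among those at an unadjusted p under 0.05 were named, and Srf was added. Members and lists were chosen with earlier results of these data known. The number of arrays limits the precision. Per the series design the 3 samples of a group were 3 mice. The alternatives covered background, normalization, filter, series table, variance model, weights, replicate block and each array left out. The probe sequence of 1 further gene is not reported here.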

Additional observations from a re-analysis of the deposited data

How the results depend on the processing

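No gene of the 33 passed the adjusted test under any of the 16 alternatives, and 19 kept their sign in all of them. The number at an unadjusted p under 0.05 was 6 as reported, 10 with normexp and 14 with array weights, and 2 to 12 with each array left out. Over all tested probes the share was 8.71% as reported, 7.73% with normexp and 18.7% with array weights. With each array left out it ran from 3.92% to 17.9%, lowest without WT replicate 3 and highest without KO replicate 1. The cause was not tested. The median of the 33 genes stayed positive throughout, from 0.22 to 0.37. With normexp, 67.7% of all tested probes had the higher KO mean, against 53.2% as reported. Over all tested probes, 1 passed the adjusted test as reported, 4 with normexp, 2 with array weights and 0 when probes had to lie above background on all 6 arrays. The differences of 14 genes changed sign under some alternative, with Ctgf and Cyr61, among the larger ones as reported, included. With normexp the sign changed for Klf6 at -0.015, Myc at 0.103 and Nr4a2 at -0.019, and with array weights Gadd45g at -0.264 and Maff at 0.166. With single arrays, or KO replicates 2 and 3 together, left out, Gadd45g ran from -0.325 to 0.642, Maff from -0.253 to 0.155, Nr4a2 from -0.121 to 0.326, Dusp1 from -0.422 to 0.367, Klf6 from -0.403 to 0.264, Ptgs2 from -0.453 to 0.430, Socs3 from -0.102 to 0.407 and Egr1 from -0.259 to 0.280. Likewise Myc ran from -0.368 to 0.378, Rgs2 from -0.760 to 0.743, Btg1 from -0.271 to 0.574, Ctgf from -0.117 to 1.237, Cyr61 from -0.789 to 1.298 and Gadd45b from -0.118 to 0.504. With both KO replicates left out, the lone KO array is assumed to vary like the others. Same-numbered arrays did not deviate together (correlations 0.12, 0.050 and -0.28), so the numbers were not taken as pairs. The replicate block left 0 genes past the adjusted test, 5 at an unadjusted p under 0.05 and the median at 0.292. A slide or scan block could not be fitted, since all arrays shared 1 slide and 1 scan.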

Other observations

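The immediate early genes varied more among mice of a group than most probes did. Their median within-group SD was 0.34 on the log2 scale over 33 genes, against 0.25 over all 38339 tested probes. Cyr61 had the largest, at 0.97, which exceeded that of 98.1% of all tested probes, followed by Nr4a1 at 0.68, Ctgf at 0.67, Rgs2 at 0.65 and Atf3 at 0.64. At the other end were Dusp6 at 0.15, Fosb at 0.16 and Ier3 at 0.19. The KO arrays were the more spread for 28 of the 33 genes, against 68.5% of all tested probes. The median SD over the 33 genes was 0.42 with KO marrow and 0.23 with WT marrow, against 0.27 and 0.19 over all tested probes. Rgs2 had an SD of 0.91 with KO marrow and 0.12 with WT marrow, and Ier5 0.44 with KO marrow and 0.044 with WT marrow. Each SD rests on 3 arrays, and no test of the spread was made.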
